A study of Drosophila melanogaster with 12 samples.

Results

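The genes p53 and Corp were followed through all 8 RNA groups and both p53 peak lists of a study of radiation in the fly Drosophila melanogaster. They are 2 of the 16510 genes in the RNA tables, picked by symbol, and windows around them hold 3 of the 392 head peaks and 2 of the 135 embryo peaks. RNA came from adult heads, from flies grown for 1 to 2 weeks, and from embryos aged 4.5 to 5.5 h. Wild type was the strain yw. The mutant was the strain p535A-1-4, known as a deletion allele of p53; the labels do not say which bases it lacks or whether the strains share a background. Each strain was mock treated or given 40 Gy of ionizing radiation, adults with 3 h of recovery and embryos, treated at 3 to 4 h, with 1.5 h. An antibody against p53 pulled down chromatin from each strain and tissue, for which no radiation is given. The heads and the embryos are mixed tissues of many animals. Each group was 1 library, so no difference below was checked against replicates or tested.

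p53 is a transcription factor that is activated when checkpoint kinases sense broken DNA, and in fly embryos it switches on the cell death genes of the reaper region. Corp (companion of reaper) is one of its targets. In flies its product binds the p53 protein and lowers its level, a role that Mdm2 has in vertebrates, so the pair forms a negative feedback loop. RNA tables show only the transcript side of this loop. In RNA from mixed tissue, fewer cells of a type and less RNA per cell cannot be told apart.

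On the dm6 build p53 (FBgn0039044) lies on the minus strand of 3R:23049657-23054082, with 4 annotated transcripts of 1324 to 2095 bp. Transcripts p53-RB and p53-RC start at base 23054082, p53-RA at 23053505 and the short p53-RE at 23051230. Corp (FBgn0030028) lies on the minus strand of X:8269898-8271409, with 2 transcripts of 1084 and 1216 bp. The tables give 1 value per gene, so transcripts of a gene could not be separated. An antisense RNA gene, CR46089, covers 812 of the 2136 exonic bases of p53 and is absent from the RNA tables. It spans 3R:23052916-23057984 and so also overlaps a neighbour of p53, CG17119. The part of CR46089 reads in the values of p53 and CG17119 was not tested. Corp lies inside CG1632, which runs the other way, with 0 shared exonic bases.

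The libraries held an estimated 10.3 to 13.4 M fragments in heads and 19.4 to 22.5 M in embryos. FPKM are fragments scaled to transcript length and library size. Intervals beside FPKM and ratios are exact 95% intervals of counting error alone. Differences are of log2(FPKM + 1), which understates those of low genes, and a gene was called at 2-fold or more. Of the 6 head markers 5 were higher in every head library than in any embryo library. The neuronal gene elav was not, at 29.0 to 35.5 FPKM in heads and 35.6 to 44.9 FPKM in embryos. The 6 embryo markers were higher in every embryo library. The rhodopsin gene ninaE was at 3962 to 5818 FPKM in heads and at most 0.07 FPKM in embryos, and the mesoderm gene sna was at 107 to 144 FPKM in embryos and at most 0.381 FPKM in heads. The median difference of all tested genes lay between -0.04 and 0.04 in each comparison.

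The p53 transcript was present in the wild type of both tissues and nearly absent in the mutant. Wild-type heads held 11.7 FPKM after mock treatment (interval 10.1 to 13.5) and 13.3 FPKM after 40 Gy (11.7 to 15.0). Wild-type embryos held 25.9 FPKM (24.1 to 27.8) and 54.5 FPKM (52.0 to 57.0). Mutant heads, in the same order, had 0.532 and 0.549 FPKM, and mutant embryos 0.700 and 0.340 FPKM. All 4 mutant libraries lay below all 4 wild-type libraries, so the strain labels fit the targeted gene. The remaining mutant signal came to about 9.86 to 23.4 estimated fragments per library, and from which exons it came was not tested.

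**Figure D1:**
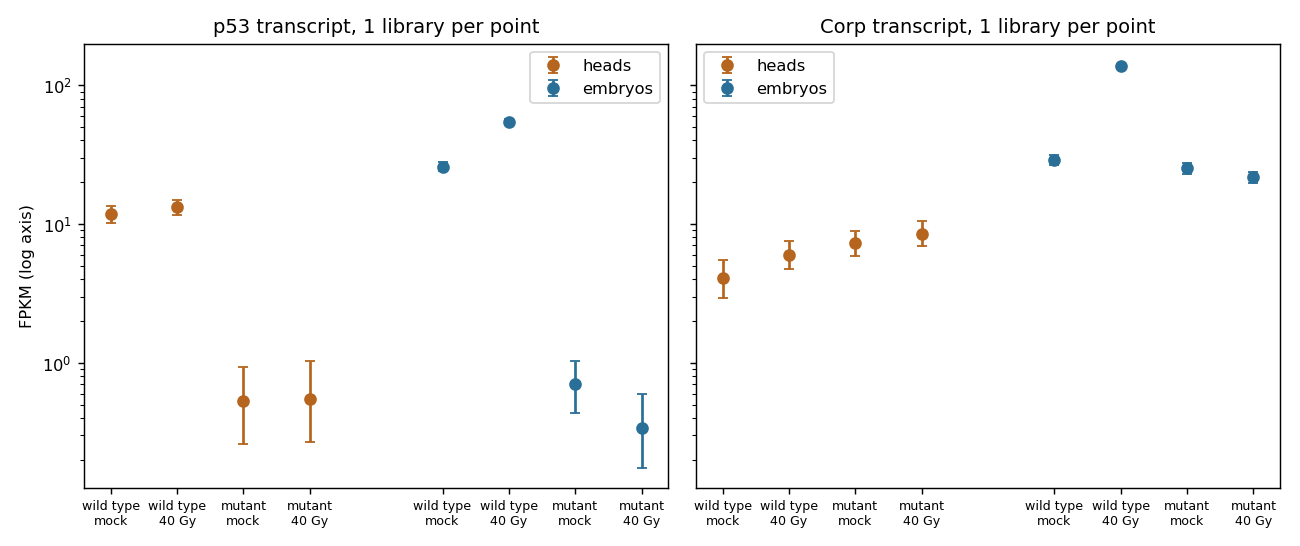
Level of p53 (left) and Corp (right) in FPKM on a log axis in each of the 8 RNA libraries; points are single libraries and bars are exact 95% counting intervals. The p53 transcript is below 1 FPKM in every mutant library, and Corp is highest, at 137 FPKM, in irradiated wild-type embryos.

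Radiation was followed by more p53 transcript in wild-type embryos. The ratio was 2.10, with a counting interval of 1.93 to 2.29, and the log2 difference of 1.04 was the 134th highest of 10654 tested genes. Among these genes 1.32% were called higher in that comparison and 0.892% lower. The interval includes 2, and with 5 FPKM added in place of 1 the difference was 0.94, under 2-fold. In wild-type heads the ratio was 1.13 (0.933 to 1.37) and the log2 difference 0.16, against 1.52% of 10672 genes called higher and 0.487% lower. That interval includes 1 and lies below 2. A 2-fold rise in heads is thus outside counting error, and no smaller difference was clear of it. In both tissues p53 was not called in the mutant, where it was near its floor. The ratios there were 1.03 (0.406 to 2.77) in heads and 0.486 (0.224 to 1.04) in embryos, neither clear of 1. The log2 differences were 0.02 in heads, beside 0.637% of genes called higher and 0.731% lower, and -0.34 in embryos, beside 1.02% called higher and 0.948% lower.

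Between the strains, p53 was the 19th lowest of the tested genes in mock-treated mutant heads and the 7th lowest in mock-treated mutant embryos. The log2 differences, mutant minus wild type, were -3.05 in heads and -3.98 in embryos after mock treatment, where 3.26% and 2.44% of genes were called lower. After 40 Gy they were -3.20 and -5.37, where 4.31% and 3.05% were called lower. The ratios of wild type to mutant after mock treatment were 22.0 (12.3 to 45.8) in heads and 37.0 (24.9 to 59.8) in embryos. Some other genes thus differed between the strains by as much as p53 did.

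Corp rose in irradiated wild-type embryos and not in irradiated mutant embryos. Wild-type embryos held 28.8 FPKM after mock treatment (26.4 to 31.3) and 137 FPKM after 40 Gy (132 to 142). Mutant embryos held 25.2 FPKM (23.1 to 27.4) and 21.7 FPKM (19.8 to 23.7). A single library, that of irradiated wild type, stood apart from the other 3, which lay within 21.7 to 28.8 FPKM. The wild-type ratio was 4.75 (4.34 to 5.21), a log2 difference of 2.21 that ranked 41st from the top of 10654 genes. The mutant ratio was 0.861 (0.760 to 0.975), a log2 difference of -0.21.

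Without radiation Corp stood slightly lower in mutant than in wild-type embryos, by little more than counting error. The mutant to wild-type ratio was 0.876 (0.776 to 0.988) after mock treatment and 0.159 (0.144 to 0.175) after 40 Gy. The log2 differences were -0.18 and -2.60, and the second was the 54th lowest, beside 6.43% of genes called higher and 3.05% lower. The wild-type minus the mutant log2 difference of the response is named its p53-dependent part here. Loss of p53 and other differences between the strains cannot be told apart in it. For Corp in embryos it was 2.42, beside 0.873% of genes called higher and 0.46% lower. With no value added to FPKM, it was 2.47 for Corp, with an approximate counting interval of 2.25 to 2.68. For p53 itself the same difference was 1.39, and 2.11 (1.10 to 3.12) with no value added. It compares the wild-type response with residual signal of at most 23.4 estimated fragments per mutant library, so it is no measure of dependence.

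Adult heads held Corp at a lower level than embryos in their separately normalized table, and it was highest in the mutant. Wild-type heads had 4.09 FPKM after mock treatment (2.93 to 5.50) and 5.98 FPKM after 40 Gy (4.70 to 7.52). Mutant heads had 7.30 FPKM (5.92 to 8.89) and 8.53 FPKM (6.94 to 10.4). Both mutant libraries lay above both wild-type libraries. The ratio of irradiated to mock heads was 1.46 in wild type (0.994 to 2.20) and 1.17 in the mutant (0.877 to 1.57). Neither log2 difference, 0.45 and 0.20, was called. About 42.2 to 98.1 estimated fragments per library stood behind these values, and a 2-fold response of wild-type heads lies within the counting interval.

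The strain difference of Corp in heads was larger than counting error with either treatment. The mutant to wild-type ratio was 1.78 (1.24 to 2.64) after mock treatment and 1.43 (1.05 to 1.96) after 40 Gy. The log2 differences of 0.71 and 0.45 were not called, beside 4.33% and 3.79% of genes called higher. They ranked 805th and 1319th from the top of 10672 tested genes, so many genes were higher in the mutant by more. The p53-dependent part in heads was 0.26 for Corp, beside 1.29% of genes called higher, and with no value added that of Corp was 0.32 with a counting interval of -0.36 to 1.00.

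**Figure D2:**
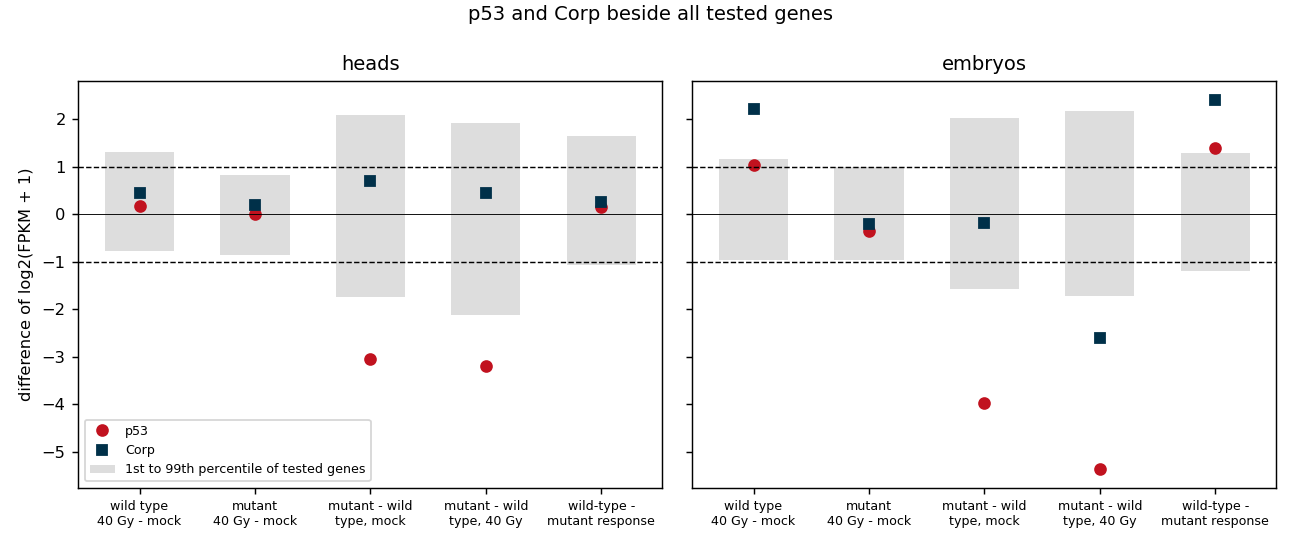
Differences of log2(FPKM + 1) for p53 (circles) and Corp (squares) in heads (left) and embryos (right), for radiation within each strain, for the strains within each treatment and for the wild-type minus mutant response; grey bars span the 1st to the 99th percentile of tested genes and dashed lines mark 2-fold. Corp lies above the bar in wild-type embryos at 2.21, and p53 lies below the bar in all 4 strain comparisons.

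Ordered over the 8 libraries, Corp ran from irradiated wild-type embryos through mock wild type, mock mutant and irradiated mutant embryos to irradiated mutant, mock mutant, irradiated wild-type and mock wild-type heads. The 2 tissues were normalized in separate tables, so the order across them is a description. Below the top library, the counting intervals of neighbours in the order overlapped within each tissue. Ratio intervals of such neighbours in embryos nevertheless lay below 1. They were 0.776 to 0.988 for mock mutant over mock wild type and 0.760 to 0.975 for irradiated over mock mutant. The order of p53 differed: wild-type embryos came first and wild-type heads next, with every mutant library below them. The counting intervals of mock and irradiated wild-type heads overlapped, as did those of neighbouring mutant libraries. Per length, Corp stood at 0.349 and 0.450 of the p53 level in mock and irradiated wild-type heads. In wild-type embryos it stood at 1.11 and 2.51 times the p53 level. The balance of both transcripts thus differed between tissues already without radiation.

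Both genes carried p53 peaks at their starts in both tissues. Folds are the authors' own and serve only to rank peaks within a list. Per the labels they set wild type over the p53 mutant, while the peak names carry a strain tag (p53K1) other than the labelled mutant. At p53 the head list has a peak at 3R:23053047-23053644 with a fold of 9.80, the 14th highest of 392, where the list median is 2.93. Its summit at base 23053303 lies in an intron of the 3 longer p53 transcripts, 202 bp downstream of the p53-RA start. That base also lies in an exon of the antisense gene CR46089, 387 bp downstream of the CR46089 start. The embryo list has a peak at 3R:23053164-23053505 with a fold of 3.44, the 31st highest of 135, where the list median is 2.48. The 2 summits are 3 bp apart, both in that CR46089 exon, and the head peak covers the embryo peak whole.

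A second, weaker head peak lies at 3R:23054020-23054224. Its fold of 2.30 ranks 305th, and its summit, also in an exon of CR46089, is 68 bp upstream of the shared start of p53-RB and p53-RC. Its −log10 q of 3.97 compares with 112 for the stronger peak. With mutant chromatin as the control, at bases the allele may lack, loss of p53 binding and loss of the DNA itself cannot be told apart. The head peaks cover 14.9% and the embryo peak 7.73% of the 4426 bp of the gene.

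At Corp the head peak lies at X:8271487-8271854 with a fold of 8.17, the 26th highest of its list. The summit is 256 bp upstream of the Corp start, in an intron of CG1632. The embryo peak, X:8271570-8271772, has a fold of 3.03, the 39th highest of 135, and its summit 282 bp upstream of the start is 26 bp from that of heads. The head peak again covers the embryo peak whole. Of the head peaks 19.1% overlap an embryo peak and of the embryo peaks 54.1% overlap a head peak. Corp thus had a p53 peak in heads, where its transcript was not called with radiation, as well as in embryos, where it was.

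**Figure D3:**
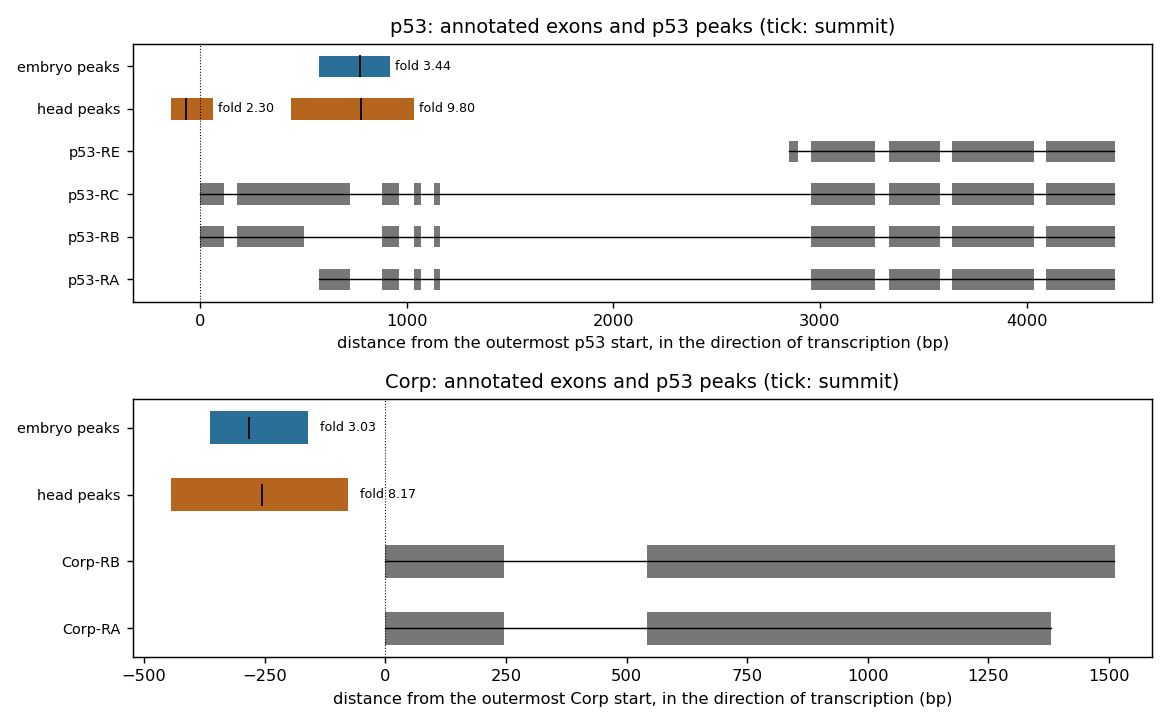
Annotated exons (grey) and p53 peaks of heads (brown) and embryos (blue) at p53 (top) and Corp (bottom), in bp from the outermost start in the direction of transcription; ticks mark summits and text gives the authors' fold. The stronger p53 peaks sit 776 to 779 bp into the gene, and the Corp peaks sit 256 and 282 bp before it.

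Of the 3 other genes in the window of p53, 1 was called lower and 1 higher in the mock-treated mutant of both tissues. Among all genes 3.26% were called lower and 4.33% higher in heads, and 2.44% and 4.94% in embryos. Gr94a, a gustatory receptor gene, lies on the plus strand at 3R:23051689-23052903, inside an intron of the longer p53 transcripts, and shares a counting locus with p53. It had 1.57 and 3.93 FPKM in mock and irradiated wild-type heads and 1.69 and 4.80 FPKM in wild-type embryos. In mutant heads it was listed at 0 in both libraries, and in mutant embryos it was at 0.05 FPKM and listed at 0. Its libraries thus split by strain as those of p53 did.

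Gr94a was higher after radiation in wild-type embryos, with a ratio of 2.84 (1.92 to 4.27) and a log2 difference of 1.11. In wild-type heads, where p53 itself had a ratio of 1.13, the ratio of Gr94a was 2.50 (1.45 to 4.71) and its log2 difference of 0.94 was not called. Gr94a stood at 13.4% and 29.6% of the p53 level in mock and irradiated wild-type heads and at 6.52% and 8.81% in wild-type embryos. The libraries were stranded per the labels, but the strand setting of the counting is not stated in any source at hand. The part of p53 intron reads in the Gr94a values was not tested.

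CG17119 (Ctns, the cystinosin gene, named for a lysosomal cystine transporter) lies at 3R:23054410-23058958, next to the p53 start. It went the other way. Wild-type heads held 1.66 and 2.35 FPKM and mutant heads 5.47 and 4.95 FPKM. Wild-type embryos held 2.50 and 3.18 FPKM and mutant embryos 6.49 and 6.80 FPKM. In both tissues both mutant libraries lay above both wild-type libraries. The mutant to wild-type ratio after mock treatment was 3.29 (2.04 to 5.35) in heads and 2.60 (1.95 to 3.53) in embryos, and both were called, beside 4.33% and 4.94% of genes called higher. After 40 Gy the ratios were 2.11 (1.42 to 3.23) and 2.14 (1.66 to 2.79). On the log2(FPKM + 1) scale these were 0.83 and 0.90, short of the call. The Hippo pathway gene sav, on its far side, differed by -0.22 and -0.23 after mock treatment.

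**Figure D4:**
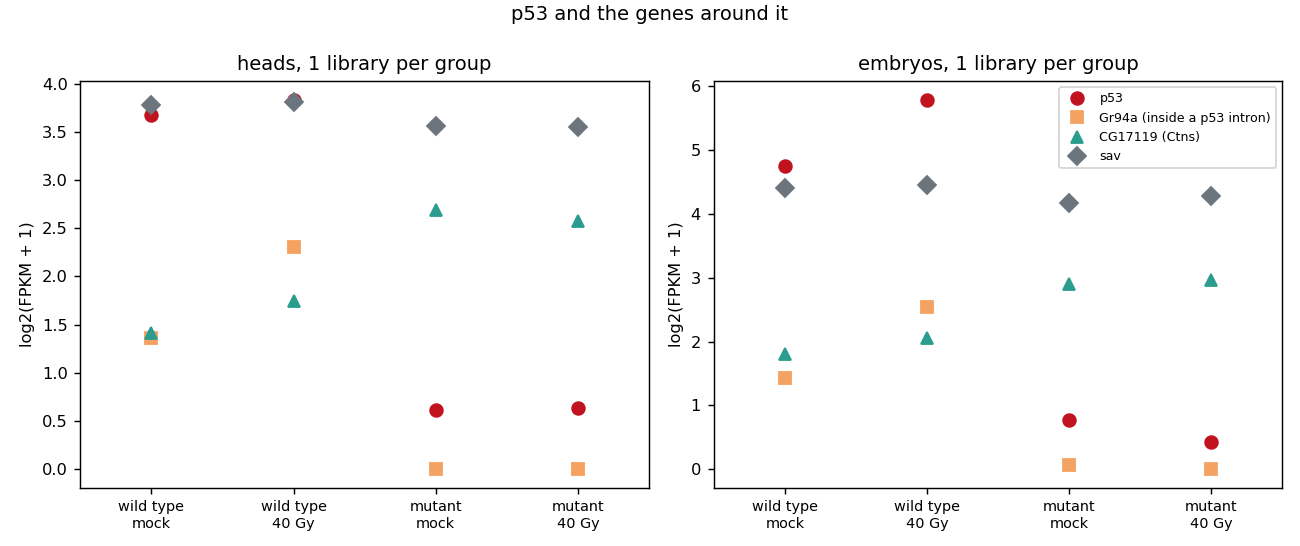
Level of p53 and of 3 genes at its locus as log2(FPKM + 1) in each group of heads (left) and embryos (right), 1 library per point. Gr94a falls with p53 in the mutant, CG17119 is higher in the mutant, and sav differs little.

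Genes around Corp were not called with radiation in wild-type embryos. The 5 others of its counting locus, which spans X:8252670-8367169, are CG1632, CG15343, CG1636, CG43695 and nAChRalpha3, an acetylcholine receptor subunit. In embryos 3 of them passed the filter on low values, and their differences with radiation in wild type ran from -0.19 to 0.36. Among all genes 1.32% were called higher there and 0.892% lower, shares that allow no call among any 3 genes. CG1632, whose intron holds the Corp peak, had 4.05 and 5.06 FPKM in wild-type embryos and 3.07 and 2.56 FPKM in mutant embryos. CG15343, the one at -0.19, had 0.92 and 0.68 FPKM in wild-type embryos. It passed the filter through mock mutant embryos, at 1.2 FPKM. In heads 4 passed the filter, and none was called in any comparison, where 0.319% to 4.33% of all genes were called in a direction. Such shares allow that for any 4 genes, and Corp itself was not called in heads.

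Other genes of the pathway were read from 3 lists. Of 13 p53 targets other than Corp, 9 were higher after radiation in wild-type embryos and 0 in mutant embryos, with median differences of 1.27 and 0.12 where all genes had medians of 0.02 and 0.04, beside 1.32% and 1.02% of all genes called higher. Corp, at 2.21, stood below skl at 3.14, rpr at 2.54 and Xrp1 at 2.51. Both skl and rpr encode activators of cell death, and Xrp1 a leucine zipper transcription factor. Corp stood above the remaining 10, which ran down to -0.18 for grim. In mutant embryos after 40 Gy 8 of the 13 were called lower than in wild type, as were 3.05% of all genes. The DNA repair genes mus205, for a polymerase subunit, and lig3, for a ligase, were called higher with radiation in wild-type embryos at 1.41 and 1.15, as were W at 1.47, egr at 1.15, Irbp at 1.54 and Ku80 at 1.27. The list had been chosen with such results known, and is no independent evidence of its direction.

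In heads 3 of 12 targets that passed the filter were called higher in wild type and 0 in the mutant, with medians of 0.39 and 0.09 where all genes had 0.01 and -0.04, and 1.52% and 0.637% of all genes were called higher. The 3 were RnrL, Ku80 and Irbp, which act in nucleotide supply and end joining. Corp, at 0.45, was near that median. After mock treatment the 12 targets had a median strain difference of 0.28, mutant minus wild type, where all genes had 0.03. Of the 12, 0 were called in either direction, beside 4.33% of all genes called higher and 3.26% lower. A list of 12 at those shares also allows that count. Corp at 0.71 lay below the highest member, Ku80, at 0.81. Ku80 went from 5.18 to 9.81 FPKM between mock-treated wild-type and mutant heads, so Corp was not alone in being higher in the mutant.

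Genes that act upstream of p53 were not called with radiation, and at the background share a list of this size would rarely hold a call. The 7 damage sensing genes include the kinase genes tefu (ATM), mei-41 (ATR), lok (Chk2) and grp (Chk1), and 0 were called in either strain and tissue, where 0.487% to 1.52% of all genes were called in a direction. In wild-type embryos lok, which encodes the kinase that activates fly p53, had 55.5 and 69.8 FPKM. The highest of the 7 was rad50, of the break-binding complex, with a difference of 0.86 in wild-type embryos and 0.37 in mutant embryos. Of 10 genes for modifiers and partners of p53, 0 were called with radiation, which the same shares also allow. The ubiquitin-like conjugating enzyme gene lwr (Ubc9), which attaches SUMO, was lower in mutant heads by a difference of -1.37 after mock treatment and -1.20 after 40 Gy, as 1 of 10 where 3.26% and 4.31% of all genes were called lower. In embryos its strain differences were -0.91 and -0.83 and not called.

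**Figure D5:**
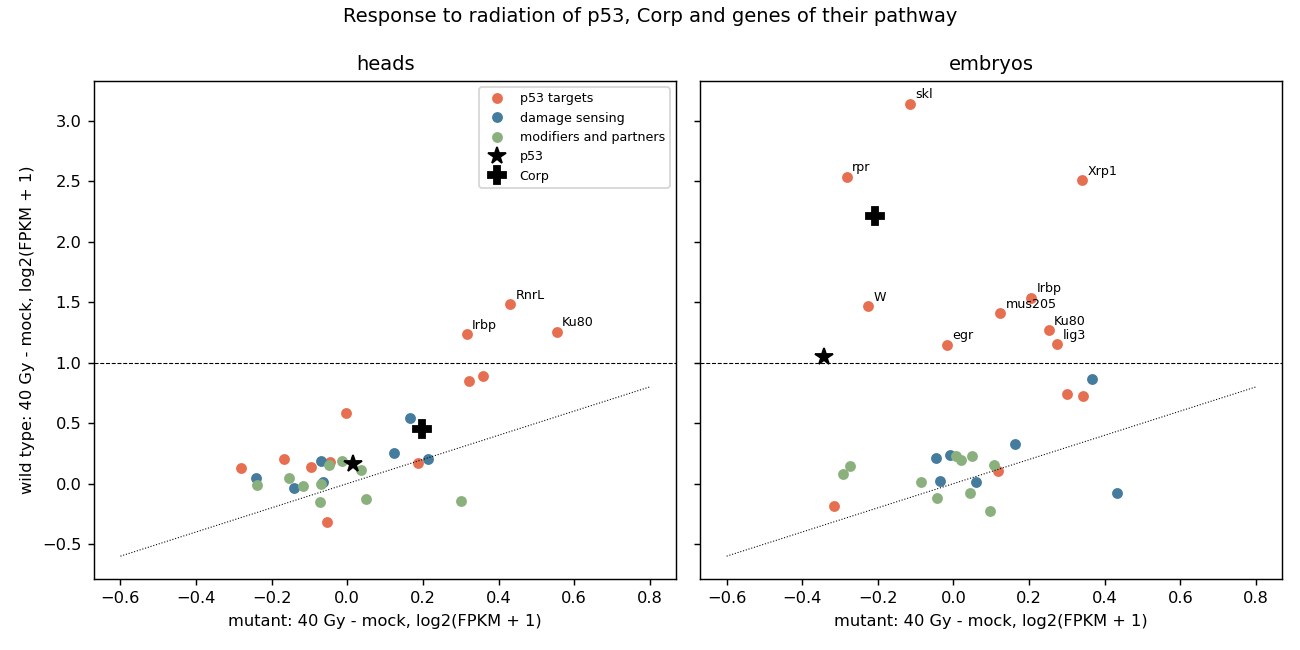
Difference of log2(FPKM + 1) with radiation in wild type (vertical) against the mutant (horizontal) for heads (left) and embryos (right), with genes that passed the filter coloured by list, p53 as a star and Corp as a cross; the dotted line marks equal responses and the dashed line 2-fold. In embryos Corp lies below skl, rpr and Xrp1 on the vertical axis, and in heads p53 and Corp lie below 2-fold.

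Among the 13 targets, W (hid), egr and Xrp1 had a peak summit within 1000 bp of a start in both lists, as p53 and Corp did, and the other 10 had none within that distance in either list. Of 23770 annotated genes 1.45% had such a summit in the head list and 0.383% in the embryo list.

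Likeness was measured as the root mean square difference of log2 profiles, each centred within its table, over the 8 groups and among 9233 genes. The gene most like Corp was rpr, at 0.23, followed by Xrp1 at 0.31, CG12194 at 0.31, CG10916 at 0.35 and Pka-C3, a kinase catalytic subunit, at 0.36, where the median gene lay at 0.79. rpr had 35.0, 208, 30.0 and 24.5 FPKM in mock and irradiated wild-type and mock and irradiated mutant embryos, and 4.33 to 5.28 FPKM in heads. Over the 4 embryo groups alone, CG1504, rpr, Xrp1, CG13713 and CG12194 came closest. All of these measures come from the same libraries.

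The gene most like p53 was Cyp4p2, a cytochrome P450 gene, at 0.35, with CG32581 at 0.77, CG32641 at 0.82, CG2898 at 0.84 and CG40472 at 0.86 behind it. Cyp4p2 had 98.4 and 140 FPKM in mock and irradiated wild-type heads and 8.10 and 5.83 FPKM in mutant heads. In embryos it had 44.4, 69.0, 1.80 and 0.590 FPKM in the same order. In both tissues its wild-type libraries lay above its mutant libraries. Over the 4 embryo groups Cyp4p2 was again the closest, at 0.23, followed by CR45204, CG32212, CG32581 and kek1.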

How the data were processed

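Cuffdiff FPKM per gene, and log2 fold changes after adding 1 FPKM, were deposited by the authors in 1 table per tissue, per the file headers. The deposited log2 values differed from recomputed ones by at most 0.0167. Peak lists give a fold (ratio) (per the labels, of wild type over mutant) and −log10 p and q, deposited by the authors from MACS2, 1 list per tissue. The submitters' processing notes name TopHat2 and Cuffdiff, Bowtie2 and MACS2, with cutadapt, SAMtools and Picard, and dm6. No source at hand states versions, the annotation or any pooling.

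A gene entered a tissue's comparisons if any of its 4 groups reached 1 FPKM, and was called at 2-fold. The p53-dependent part was called where the wild-type response was also past 2-fold in the same direction. Depth was estimated from the spacing of low FPKM in genes with 1 transcript, with lengths reduced by 150 bp, a value picked after the data were seen. The estimate was less stable in heads, and counting intervals there are approximate. Ratio intervals are Clopper-Pearson, with the mean transcript length. Those of the p53-dependent part are instead a normal approximation on the log2 scale, which is rough at the low counts of p53 in the mutant. Positions come from the Ensembl annotation in dm6 coordinates, in which 69.8% of the deposited loci equal the extent of a gene. Scripts (Python 3.11.15, SciPy 1.17.1) were tested on simulated data. Sequence motifs were not analysed here.

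The members, lists and named genes were chosen with earlier results of these data known. Named were both members, all genes of both windows, list members past 2-fold in a comparison with up to 4 others, and the 5 most alike genes. The kinase genes, grim, CG1504 and others named with single values stand for their lists.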

Additional observations from a re-analysis of the deposited data

Results flagged for a closer look

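In embryos Corp was higher after radiation in wild type and lower in the mutant, and the log2 differences were 2.42 apart. The p53 values were 1.39 apart. The mutant ratio of p53, 0.486 (counting interval 0.224 to 1.04), is residual signal and not clear of 1, so a downward move stays undecided. In the mutant, the differences of heads and embryos had opposite signs for p53, 0.36 apart, and for Corp, 0.41 apart. Of these 4 values only that of Corp in embryos, a ratio of 0.861 (0.760 to 0.975), was clear of counting error. Each rests on 1 library per group, and none of the 4 differences was tested.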

How the results depend on the processing

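Under the 3 alternatives of scale (0.1 or 5 FPKM added, or rescaling by the median ratio), no called difference of p53 or Corp changed sign. The strain differences of p53 moved most. In mock heads they were -4.23 with 0.1 and -1.60 with 5 FPKM added, and in irradiated heads -4.36 and -1.72. In mock embryos they were -5.02 and -2.44, and in irradiated embryos -6.95 and -3.48. With 5 FPKM the Corp response of wild-type embryos was 2.07, its strain difference in irradiated embryos -2.41, and the p53 response of wild-type embryos 0.94, under 2-fold. Such shifts follow from the value added. The -log10 q minimum of 10 left 1 of the 2 head peaks at p53 and all other peaks. Of the 5 genes most like p53, 2 were shared with 0.1 FPKM added, and 1 over embryos alone. For Corp over embryos 2 were shared.

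The background moved as follows, in the order of wild-type and mutant response, mock and irradiated strain difference and p53-dependent part. As reported, 214, 146, 810, 864 and 172 genes were past 2-fold in heads and 236, 210, 786, 1010 and 142 in embryos. With 5 FPKM added they numbered 58, 26, 367, 372 and 54, and 96, 91, 311, 433 and 60. With 0.1 FPKM added the 2 responses and the dependent part numbered 480, 369 and 378 in heads, and all 5 numbered 486, 427, 1274, 1536 and 303 in embryos. A filter of 5 FPKM left 92, 61, 569 and 78 in heads (mock strain difference aside) and 136 for the mutant embryo response, which was 131 without small RNA genes, as the dependent part was 92. Filters and pseudocounts change which low genes can be called.

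With the length reduced by 0 to 250 bp or, chosen after seeing the data, the shortest or longest transcript, the ratio intervals of p53 and Corp stayed on their side of 1 with 2 exceptions. The lower bound of the Corp response in wild-type heads was 1.004 with the longest transcript. The upper bound of p53 in mutant embryos was 0.991 and 0.977 at 200 and 250 bp and 0.945 with the longest transcript. No paired analysis was possible because each group has 1 library, so none was left out. Motif matches were not run.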

Other observations

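Within 50000 bp of p53, 10 other genes passed the filter in heads and 13 in embryos. Between mock-treated strains CG17119 and Gr94a were the genes called there in both tissues, 1 higher and 1 lower, where 4.33% of all genes were called higher and 3.26% lower in heads and 4.94% and 2.44% in embryos. In irradiated heads Gr94a was called lower and CG17121, on the other side of p53, higher, with 36.5 FPKM in the mutant and 16.8 FPKM in wild type, where 3.79% of all genes were called higher and 4.31% lower. In embryos CG17121 had 6.78 and 10.0 FPKM in the same groups. Within 50000 bp of Corp none of 9 genes was called in heads. In embryos sni was higher in the irradiated mutant, as 1 of 8, by a difference of 1.05, where 6.43% of all genes were called higher. Both Corp counts are near the background.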
